A study of Ascaridia galli and Trichostrongylus colubriformis with 4 samples.

Results

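Serine/threonine-protein phosphatases are the enzymes and enzyme complexes that take phosphate groups off serine and threonine residues. Here they are followed in 2 gut nematodes, *Ascaridia galli* from chickens and *Trichostrongylus colubriformis* from sheep. A member is an assembled transcript (unigene) whose best protein hit bears a name that starts with serine/threonine-protein phosphatase, with or without the hyphen, in any case. The rule reads the name alone and found 201 of 150798 unigenes in *A. galli* and 31 of 43810 in *T. colubriformis*. The family itself was, however, chosen by the measured levels of conditions A and B in earlier work on these data, so its values are a description, carry no test and support nothing further.

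Serine/threonine phosphatases of the PPP superfamily share a metal-bearing catalytic core and gain their targets through other proteins. PP1 binds a large array of targeting and inhibitory subunits, PP2A works as a complex of scaffold, catalytic and B-type regulatory subunits, and PP4 and PP6 have regulatory subunits of their own. Calcineurin (PP2B) answers to calcium, and PP5 carries a repeat domain that docks to a heat shock chaperone. In the free-living nematode *Caenorhabditis elegans* the PP1 enzyme GSP-2 is made in many tissues, while a further pair of PP1 enzymes is made in sperm and is needed for sperm to form and move.

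Whole worms taken from the intestines of slaughtered chickens or sheep were kept, 6 to a dish, in water extract of the moss *Pottia lanceolata* or in distilled water, and their RNA was sequenced. The 4 groups were *A. galli* in water, *A. galli* in extract, *T. colubriformis* in water and *T. colubriformis* in extract, with 1 library each. The extract was assayed at 10, 20 and 50 mg/ml, and the concentration used for the RNA, the sex of the worms and the number of worms behind a library are not stated in the labels. The comparison asks how transcript levels in extract differ from those in water. The deposited columns are named condition A and condition B, and neither the headers nor the labels say which is extract. Every difference below is therefore condition B against condition A, and the order may not be the same in both worms.

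The values are the authors' normalized counts per unigene. They are not corrected for transcript length, so the level of one unigene says little about that of another. The steps between low values gave back whole reads. *A. galli* had 87659967 reads in A and 69118994 in B, and *T. colubriformis* had 91182265 in A and 91812201 in B. The *T. colubriformis* totals were close to each other, yet the deposited scale counts a read as 2 in condition A and as 0.5 in condition B. Scaling by the read totals instead adds 1.99 to the log2 ratios of well-covered unigenes of that worm and 0.38 to those of *A. galli*. With the pseudocount the shift is smaller at low counts, down to 1.49 and 0.34 among the members. Ratios on total scaling are given beside the main results. The *T. colubriformis* libraries stood far apart: on total scaling, 59.4% of 36558 unigenes differed at least 16-fold between the conditions, against 4.57% of 117937 in *A. galli*. Whether both *T. colubriformis* libraries hold the same species or mix of worms was not tested, and this limit stands behind every ratio of that worm.

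Log2 ratios use a pseudocount of 1, and a member entered the counts when the higher condition reached 20 normalized counts. A difference of at least 4-fold, a log2 ratio of 2 in size, was the size rule. The 95% intervals in brackets are exact binomial intervals of the ratio without the pseudocount, computed on pairs of reads. Pairs were rounded to whole numbers and set to at least 1, so the intervals are approximate at the lowest counts. The intervals cover counting error only and say nothing of the variation between worms, because no group had a second library.

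In *A. galli*, the phosphatases were mostly lower in condition B. Of 198 members past the minimum, 51 (25.8%) were at least 4-fold lower and 2 were at least 4-fold higher, while over all unigenes 9.76% were lower and 22.7% higher by the same rule. The median log2 ratio of the members was -1.48, with an interquartile range from -2.01 to -0.75, against a median of -0.09 for all unigenes. The ratio was below 0 in 184 of the 198 members. At a 2-fold limit, 132 members were lower and 5 higher, where 27.3% of all unigenes were lower and 35.6% higher. Summed over the 201 members, normalized counts were 294120 in A against 116912 in B (log2 ratio -1.33), and the family took 0.331% of the reads in A and 0.172% in B.

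The background depends on which unigenes are counted. Among *A. galli* unigenes whose best hit is a protein of an ascaridid, the group of roundworms that holds *Ascaris* and *Toxocara*, 7.7% were at least 4-fold lower and 2.95% higher, with a median log2 ratio of -0.59. Of the phosphatases, 154 had an ascaridid hit, and of the 152 that passed the minimum 40 were lower, none was higher, and the median was -1.44. With a minimum of 1000 in place of 20, 63 members remained, of which 17 were lower and none higher, while 8.47% of all unigenes at that level were lower and 4.76% higher. On total scaling, 26 members were at least 4-fold lower and 3 higher, with a median of -1.09. The background on that scale was 5.74% lower and 29% higher over all unigenes, and 4.25% lower and 4.42% higher among ascaridid hits.

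**Figure D1:**
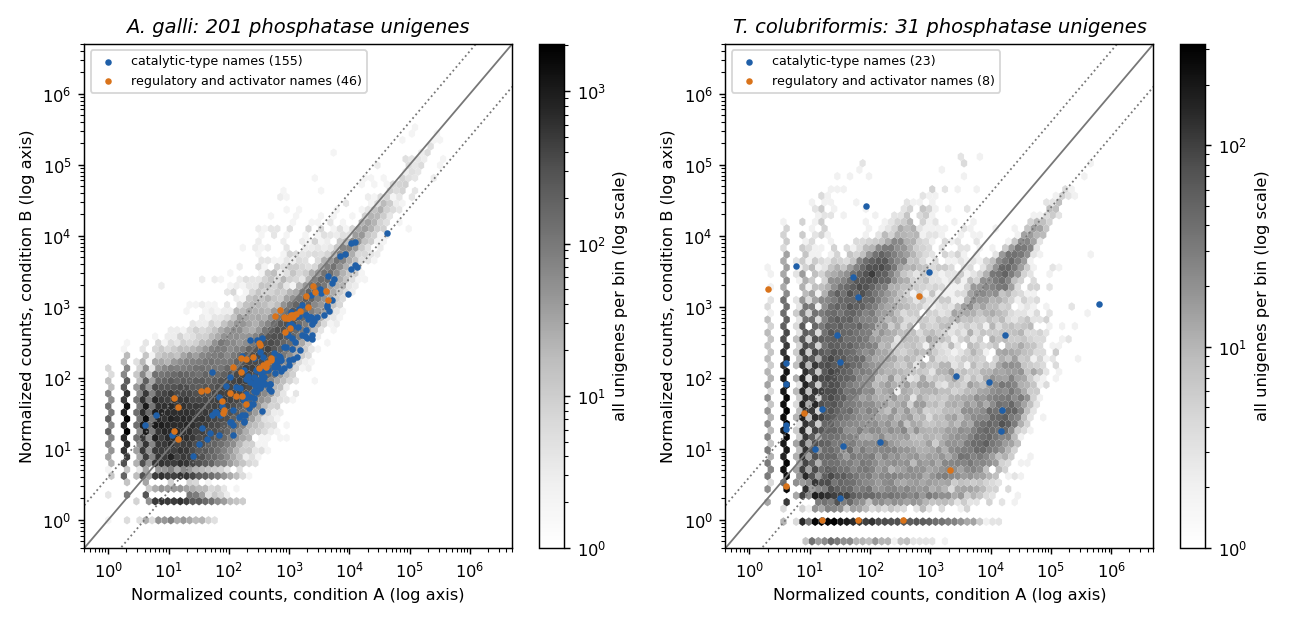
Normalized counts of condition B against condition A, both on log axes, for all unigenes (grey, darker where more unigenes fall in a bin) and for phosphatase members (blue for catalytic-type names, orange for regulatory and activator names) of each worm; the solid line marks equal values and the dotted lines 4-fold differences. The 201 *A. galli* members lie mostly between equality and the lower 4-fold line, and the 31 *T. colubriformis* members lie scattered far to both sides.

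Most names give no type. In *A. galli*, 147 of the 201 members are called only serine/threonine-protein phosphatase, and the gene name of the hit gives the type of some. Members were grouped by these names into 155 with catalytic-type names and 46 named as regulatory subunits or activators. Of 154 catalytic-type members past the minimum, 50 were at least 4-fold lower and 2 higher, and their median log2 ratio was -1.68. Of 44 regulatory and activator members past it, 1 was lower and none higher, and their median was -0.64. Total scaling brought these medians to -1.30 and -0.22. With at least 1000 normalized counts, 17 of 50 catalytic-type members and none of 13 regulatory members were lower.

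The *A. galli* member with the highest normalized counts, unigene 181056, matched a *Brugia malayi* phosphatase (Bm1_44795) at 88% identity over 308 of its 311 residues. Its normalized counts were 41986 in A against 10767 in B, for a log2 ratio of -1.96 (-2.01 to -1.92). It held 14.3% of the family's summed counts in A and 9.21% in B. Without it the summed log2 ratio was -1.25.

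Other catalytic members with high counts lay on both sides of that value. Both unigenes that matched *Loa loa* LOAG_05000 at 78.6% identity were lower in B, one with 13298 and 3601 normalized counts (log2 ratio -1.88) and the other with 10550 and 3362 (-1.65). The unigene matching *Ascaris suum* ASU_13382 at 77.3% had 12507 and 3828 normalized counts (-1.71). Ratios closer to 0 were found in 3 others. The LOAG_06374 match, at 97.3% identity, had 12533 normalized counts in A and 8265 in B, a log2 ratio of -0.60 (-0.66 to -0.54). The ASU_14192 match at 87.7% had 8323 and 5568 (-0.58), and the LOAG_08810 match at 94.4% had 6909 and 5198 (-0.41). On total scaling the ratios of these 3 were -0.22, -0.20 and -0.03.

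The gene name of the hit pointed to a PP1-type catalytic subunit in 18 unigenes, with no limit set on identity. All 18 had a ratio below 0, 5 were at least 4-fold lower, and the median was -1.42. Among the 5 was a PPZ2 match at only 38.5% identity (-2.18), and a pppB match was at 33.7% (-1.94). The best match was to gsp-2 of *Toxocara canis*, at 99.7% identity, named after the *C. elegans* PP1 enzyme made in many tissues. It had 10643 normalized counts in A and 7957 in B, a log2 ratio of -0.42 (-0.48 to -0.36), and -0.04 on total scaling. Both larger unigenes matching the *T. canis* gene named sds21, after a PP1 enzyme of fission yeast, were lower: 5139 against 1233 normalized counts, and 4192 against 1006, each a log2 ratio of -2.06. The other sds21 match, at 69.8% identity over 53 of 332 residues, had 553.7 and 225.8 (-1.29).

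The remaining PP1-type members filled the range between. The unigene matching the *T. canis* gene PP1 at 76% identity had 5170 normalized counts in A and 2139 in B (-1.27). The 3 matches to TOPP7, a name taken from plant PP1, had log2 ratios of -1.11, -1.45 and -2.66, so unigenes with the same best hit did not all share one ratio. The 3 matches to PPP1CC, the mammalian name of PP1 gamma, had -1.38, -1.95 and -2.04. All but the *T. canis* gsp-2 match in this class had ratios of -0.86 or lower. Among them was a match to gsp-2 of *Trichinella papuae*, with 48.7 and 16.8 normalized counts (-1.48).

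The PP5, PP6, calcineurin and PP4-like catalytic members were few, with log2 ratios from -1.18 to -0.24. Both PP5 unigenes, at 85.4% and 87.1% identity to *A. suum*, were lower, with 5645 and 2496 normalized counts (log2 ratio -1.18) and with 3406 and 1568 (-1.12). The 3 unigenes matching pph-6, the PP6 catalytic subunit, had ratios of -0.62, -0.65 and -0.32, and the first of them had 1606 normalized counts in A and 1047 in B. The single calcineurin member matched Pp2B-14D at 90.1%, over only 81 of its 487 residues. It had 91.3 and 76.9 normalized counts (-0.24, -0.90 to 0.40), an interval that spans 0. The PP4-like member, PP-X-like protein 2, had 375.2 and 194.3 normalized counts (-0.95).

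Members of other folds or with extra domains were single unigenes or a pair. PGAM5, a phosphatase of the mitochondrial membrane, had 1922 normalized counts in A and 765.3 in B (-1.33). Dullard, a phosphatase of the nuclear envelope, had 263.7 and 187.4 (-0.49). The EF-hand phosphatase PPEF1, whose name refers to its calcium-binding motif, was matched by 2 unigenes with 190.6 and 96.6 normalized counts (-0.97) and with 189.6 and 59.2 (-1.66).

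**Figure D2:**
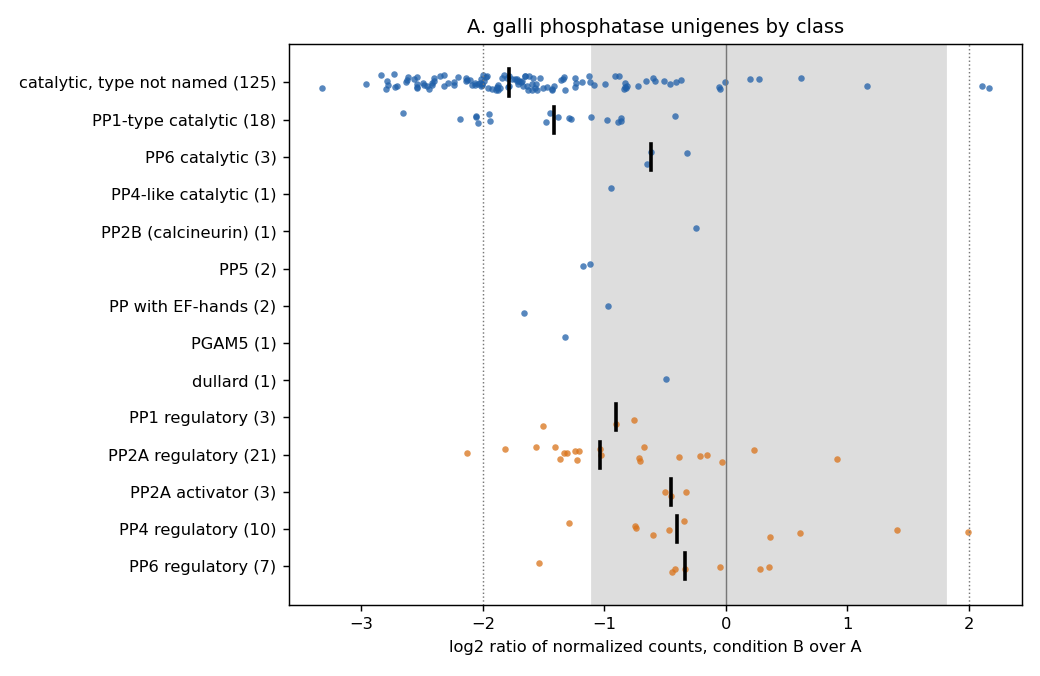
Log2 ratio of normalized counts, condition B over A, of the 198 *A. galli* members past the minimum, 1 point per unigene, by class with the number of unigenes; black bars are medians of classes with at least 3 members, dotted lines mark 4-fold, and the grey band is the interquartile range of all unigenes. Catalytic members of unnamed type centre on -1.78, while regulatory and activator classes centre between -1.04 and -0.33.

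The regulatory subunits of PP2A, which choose its substrates, were the largest regulatory class. Of 22 unigenes 21 passed the minimum, 1 was at least 4-fold lower and the median log2 ratio was -1.04. The member with the most counts, an *A. suum* match at 87.3%, had 4327 normalized counts in A and 1228 in B (-1.82, -1.95 to -1.69). The 55 kDa regulatory subunit B hit ASU_04690 was matched by 5 unigenes whose ratios ran from -1.37 to 0.23. The unigene with the highest counts among them had 2032 in A and 997.0 in B (-1.03), and another had 318.4 and 311.6 (-0.03). The 3 unigenes of the PP2A activator, a prolyl isomerase that helps the catalytic subunit fold into its active form, had ratios of -0.50, -0.45 and -0.33, the first with 1059 and 747.5 normalized counts.

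Regulatory subunits of PP4 and PP6 lay closest to equality. The 10 PP4 subunits had a median of -0.40 and none passed 4-fold in either direction. PP4 regulatory subunit 3A was matched by 2 abundant unigenes of the same identity, one with 4008 and 1641 normalized counts (-1.29) and one with 2735 and 1637 (-0.74). Of the 3 unigenes of PP4 regulatory subunit 1, one was higher in B, with 709.8 and 912.2 normalized counts (0.36, 0.16 to 0.56), while the other two had -0.60 and -0.46. Of the 8 PP6 subunits 7 passed the minimum, with a median of -0.33. PP6 regulatory subunit 1 had 2469 and 1959 normalized counts (-0.33), and an ankyrin repeat subunit A unigene had 575.0 and 735.7 (0.36, 0.13 to 0.58). The 3 unigenes of PP1 regulatory subunit 10, a nuclear targeting subunit of PP1, had -0.76, -0.91 and -1.50, the first with 1491 and 881.6 normalized counts. On total scaling the medians of the PP4 and PP6 subunits were -0.02 and 0.05.

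The largest differences were in catalytic members with no type in the name. Ranked by the bound of the interval nearest 0 among members with at least 100 normalized counts, the first was a *T. canis* match at 75.5% identity, with 353.9 normalized counts in A and 34.5 in B (-3.32, -4.10 to -2.61). An *A. suum* match at 47.1% had 1351 and 195.3 (-2.78, -3.11 to -2.48), and another at 73.3% had 507.0 and 64.1 (-2.96, -3.58 to -2.47). A match to a fragment of an *A. suum* phosphatase at 42.1% had 2354 and 354.0 (-2.73, -2.96 to -2.50). The *L. loa* match at 87.5%, with no gene name, had 9398 and 1530 normalized counts (-2.62, -2.73 to -2.51). A second unigene with the same best hit and the same identity had 2318 and 1469 (-0.66, -0.79 to -0.52), so unigenes that share a hit can differ by more than their counting error.

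Only 4 members with at least 100 normalized counts had an interval wholly above 0. Beside the PP4 and PP6 subunits given above, they were a *Wuchereria bancrofti* match with 52.7 and 119.3 normalized counts (1.16, 0.48 to 1.89) and an *A. suum* match at 76.8% with 221.1 and 340.2 (0.62, 0.26 to 0.98). The 2 members past 4-fold higher were low and weakly matched. One, 28.4% identical to a *Nippostrongylus brasiliensis* protein, had 6.08 and 29.6 normalized counts (2.11), and the other, at 36% to *Trichinella papuae*, had 4.06 and 21.7 (2.17). The *T. papuae* hit bears the gene name slc25a26, which does not name a phosphatase. Just short of the limit on that side stood a PP4 regulatory subunit 4 unigene with 12.2 and 51.3 (1.99). On the lower side, the members next to the limit were matches to *Ascaris lumbricoides*, one with 721.0 and 178.5 (-2.01) just past it and one with 1623 and 405.3 (-2.00) just short. The member just past it matched over 54 of 308 residues.

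Identity to the best hit separated the catalytic members to some extent. The 25 catalytic-type members with at least 85% identity had a median log2 ratio of -0.72, and 4 of them were at least 4-fold lower. Below that the medians were alike, at -1.70 for 35 members from 75% to 85%, -1.72 for 55 members from 60% to 75%, and -1.80 for 39 members under 60%. In these 3 classes 10, 21 and 15 members were at least 4-fold lower, where 9.76% of all unigenes were. Over all unigenes with ascaridid hits, the medians of the same 4 classes of identity were -0.52, -0.52, -0.58 and -0.66. The members were not limited to ascaridid hits, so identity refers to a wider range of species there. Across the 154 catalytic-type members the rank correlation of the ratio with identity was 0.25, and that of level with identity was 0.47. Both are descriptions, since the points share libraries and, in part, hits. With at least 1000 normalized counts, the median was -1.06 for 16 members of at least 85% identity and -2.01 for 7 members under 60%. Between these it was -1.64 both for 18 members from 75% to 85% and for 9 from 60% to 75%. At least 4-fold lower were 4 of the 16 and 5 of the 18.

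**Figure D3:**
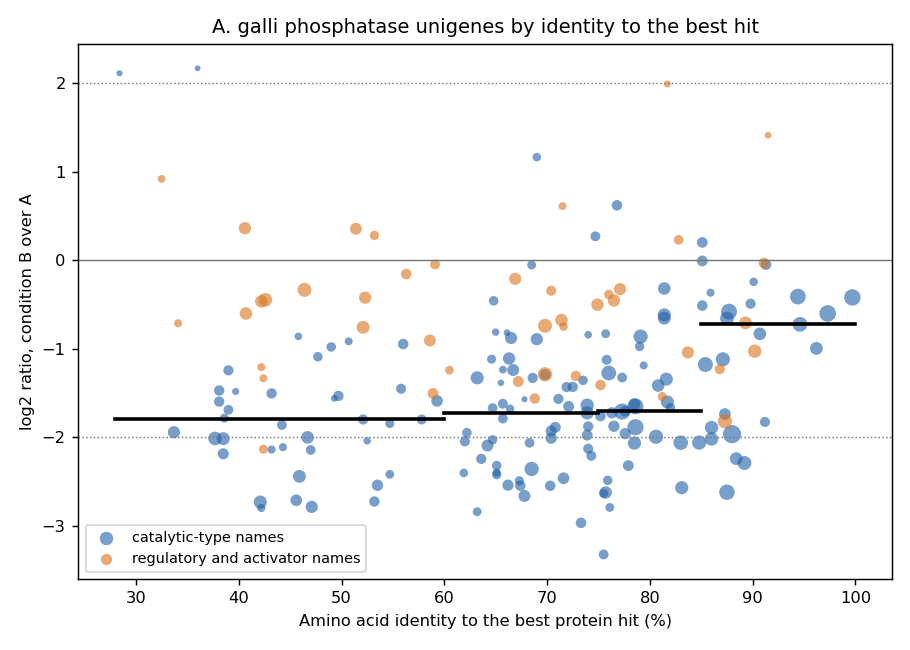
Log2 ratio, condition B over A, against percent amino acid identity to the best hit for the *A. galli* members past the minimum, with larger points for higher mean normalized counts; black bars are medians of catalytic-type members within classes of identity, and dotted lines mark 4-fold. The bar from 85% up stands at -0.72 and the other bars lie between -1.80 and -1.70.

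The members may stand for fewer genes than unigenes, but no sequences were compared. Whether unigenes on the same hit come from 1 gene was not tested. The 201 *A. galli* unigenes matched 97 proteins, and 153 of them shared their hit with at least 1 other unigene. Among 207 pairs on the same hit, 176 overlapped by at least 50 residues. Of 48 hits with at least 2 unigenes past the minimum, 5 (10.4%) held unigenes at least 4-fold apart in ratio. Over the 10929 such hits of all annotated unigenes the share was 26.6%. Those hits held up to 261 unigenes each, against up to 7 for the members. The 2 shares are not like for like, because more unigenes on a hit can only widen its range. Summed per hit, 22 proteins were at least 4-fold lower and 2 higher, with a median log2 ratio of -1.41.

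Other phosphatases and kinases of *A. galli* give the setting. The tyrosine phosphatases, which act on tyrosine residues, had 39 of 160 unigenes at least 4-fold lower, 1 higher, and a median of -1.10. On total scaling these were 17 lower and 3 higher of 159, with a median of -0.71. Tyrosine-protein phosphatase non-receptor type 12, the one with the most counts, had 16985 normalized counts in A and 2228 in B (-2.93). The dual specificity phosphatases (13 unigenes, none past 4-fold) had a median of -0.70, and the PP2C-type phosphatases (12 past the minimum, 2 lower, 1 higher) one of -0.59. The 6 unigenes with calcineurin in the product name had -0.64, and the PP1 regulators and inhibitors (15 unigenes) -0.59, with none past 4-fold. Of those 6, the one with the most counts was named calcineurin B homologous protein 1. The serine/threonine-protein kinases, which add the phosphate, had 15 of 284 lower, 11 higher and a median of -0.54, and on total scaling 9 of 287 lower, 17 higher and a median of -0.16. The casein kinases had 1 of 17 lower and a median of -0.76.

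The major sperm proteins, which drive the crawling of nematode sperm and are made in the male germ line, had ratios in the same range as the catalytic members. Of 158 unigenes past the minimum, among 159, 52 were at least 4-fold lower and 3 higher, and the median log2 ratio was -1.78, with an interquartile range from -2.12 to -1.41. On total scaling 21 were lower and 3 higher, with a median of -1.39. Their summed normalized counts were 5077184 in A and 1523105 in B. The vitellogenins, yolk proteins of egg-bearing females, had summed normalized counts of 360.0 in A and 1209 in B over 4 unigenes. Of the 3 that passed the minimum, 2 were at least 4-fold higher, none was lower, and the median was 2.23. The one with the most counts, a vitellogenin-6 fragment, had 309.3 and 993.1 (1.68). The list called muscle proteins took product names with myosin, actin, paramyosin, tropomyosin or troponin. It was not limited to forms made in muscle. Its 160 unigenes past the minimum had 6 lower, 4 higher and a median of -0.47, which was -0.09 on total scaling. The part of these tissues in the phosphatase values was not tested, and in whole worms fewer cells of a type and less RNA per cell cannot be told apart.

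**Figure D4:**
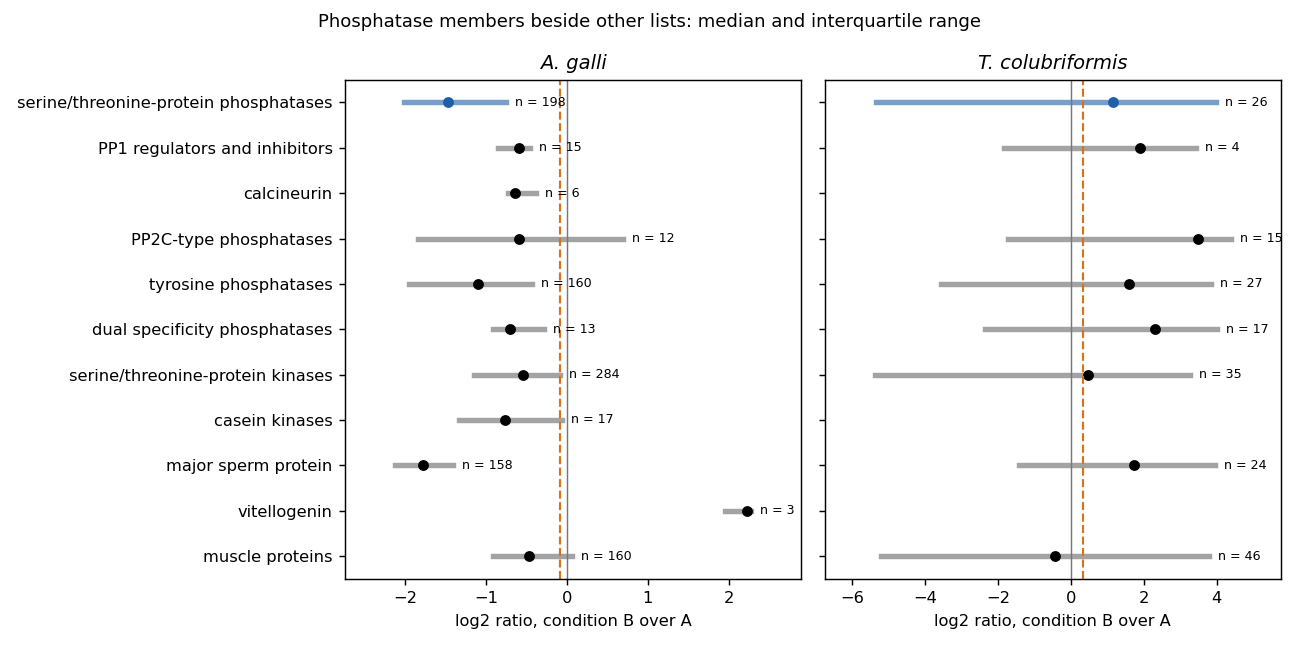
Median (point) and interquartile range (bar) of the log2 ratio, condition B over A, for the phosphatase members (blue) and for lists of other genes matched by product name, with the number of unigenes past the minimum; lists with fewer than 3 are left out, and the dashed line is the median of all unigenes. In *A. galli* the phosphatases stand at -1.48, between the tyrosine phosphatases at -1.10 and the major sperm proteins at -1.78, and in *T. colubriformis* all ranges are several log2 units wide.

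In *T. colubriformis*, the family split to both sides. Of 31 members 26 passed the minimum, of which 10 (38.5%) lay at least 4-fold above equality and 11 (42.3%) at least 4-fold under it. The background was nearly the same, with 39.7% of all unigenes higher and 41.6% lower. With a minimum of 1000 in place of 20, 14 members were left, 5 higher and 7 lower, beside 36.3% of all unigenes higher and 57.3% lower. Their median log2 ratio was then -1.73, beside -2.79 for all unigenes. At the minimum of 20 the median was 1.15, with an interquartile range from -5.33 to 3.98, against a median of 0.35 for all unigenes. On total scaling 15 members were higher and 9 lower, with a median of 3.42, where 55.7% of all unigenes were higher and 28.1% lower, with a median of 2.93. At least 16-fold on that scale were 15 of 26 members, 9 of them higher and 6 lower, a share of 57.7% that stands beside 59.4% of all unigenes.

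The sum of the family rests on 1 unigene. Unigene 17623, a match to *Ancylostoma ceylanicum* Acey_s0023.g771 at 93.1% identity, went from 632602 normalized counts in A to 1079 in B, with a log2 ratio of -9.19 (-9.28 to -9.11) and -7.21 on total scaling. It made up 90.7% of the family's counts in A and 2.51% in B. With it the family summed to 697298 in A and 42936 in B, a log2 ratio of -4.02. Without it the sums were 64696 and 41857, a log2 ratio of -0.63 that becomes 1.36 on total scaling, so the direction for the other 30 members depends on the scale.

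Catalytic members high in condition A included several well-matched unigenes. A second match to Acey_s0023.g771 had 17478 normalized counts in A and 398.5 in B (-5.45, -5.61 to -5.31). The *Haemonchus contortus* match HCOI_01774500, at 97.6% identity, had 9462 and 87.0 (-6.75, -7.09 to -6.46). An *Oesophagostomum dentatum* match at 95.3% had 2626 and 105.5 (-4.62, -4.94 to -4.33).

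Others were as far to the opposite side. The HCOI_01157600 match, at 73.3% identity, had 84.0 normalized counts in A and 26198 in B (8.27, 7.67 to 8.98). The HCOI_01504000 match at 69.3% had 52.0 and 2659 (5.65, 4.90 to 6.59), and the *A. ceylanicum* ANCCEY_06272 match at 93.5% had 64.0 and 1373 (4.40, 3.72 to 5.23). The HCOI_00409300 match at 79.1% had 938.0 and 3090 normalized counts (1.72, 1.53 to 1.92). Next to the 4-fold limit stood members with few reads. The HCOI_00437300 match, with 4.0 and 21.5 normalized counts (2.17, -0.17 to 7.83), was just past it, although its interval spans 0. A *Necator americanus* match to the 55 kDa subunit, with 8.0 and 32.0 (1.87, 0.03 to 5.11), was just short. On the lower side the nearest member past the limit lay well beyond it. This was a *Syphacia muris* match over only 24 residues, with 32.0 and 2.0 (-3.46). The nearest short of it was the Acey_s0019.g3960 match with 36 and 11 (-1.62).

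Unigenes on 1 protein also parted. *A. ceylanicum* Acey_s0327.g2612 was matched by 3 unigenes. A pair at 86.3% identity had 15488 and 35.5 normalized counts (-8.73, -9.26 to -8.28) and 14950 and 18.0 (-9.62, -10.45 to -9.04). The other, at 79.3% identity, had 6.0 and 3732 (9.06, 7.01 to 11.91), the first value being 3 reads. This was a feature of the whole table: on total scaling, 41.3% of 3527 hits with at least 2 unigenes held unigenes at least 4-fold higher and at least 4-fold lower, against 1.35% of 10929 hits in *A. galli*.

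The regulatory side held 6 PP2A regulatory subunits and 2 unigenes of the PP2A activator, and no PP4 or PP6 subunit was among the members. The 55 kDa subunit B match ANCCEY_07040 had 2124 normalized counts in A and 5.0 in B (-8.47, -10.36 to -7.50). The *O. dentatum* OESDEN_08546 match had 2.0 and 1767 (9.20, 6.31 to 14.09), where the first value is 1 read. A *N. brasiliensis* match had 358.0 and 1.0 (-7.49, -13.81 to -5.98). The activator, matched to OESDEN_09578, had 638.0 and 1427 (1.16, 0.92 to 1.40). Among 5 regulatory subunits past the minimum, 1 was higher and 3 lower.

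**Figure D5:**
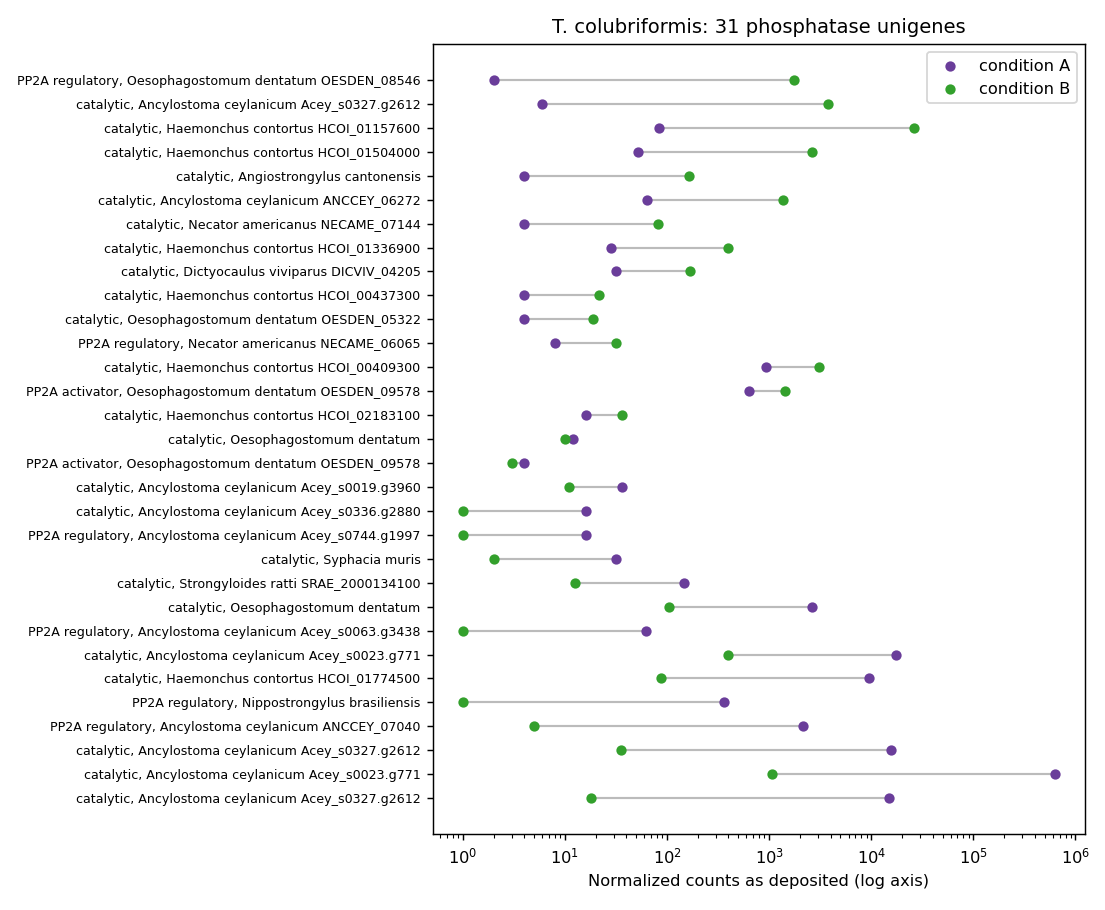
Normalized counts as deposited, on a log axis, in condition A (violet) and condition B (green) for each of the 31 *T. colubriformis* members, ordered by log2 ratio and labelled by type, species and gene of the best hit. Members at the top reach up to 26198 in B with 84.0 or fewer in A for the first 3, and members at the bottom are high in A, led by the one with 632602.

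The companion lists of *T. colubriformis* were as wide. Tyrosine phosphatases had 12 of 27 unigenes at least 4-fold higher and 8 lower (median 1.60), PP2C-type phosphatases 9 of 15 higher and 4 lower (3.48), and dual specificity phosphatases 9 of 17 higher and 5 lower (2.31). Serine/threonine-protein kinases had 13 of 35 higher and 14 lower (0.49). PP1 regulators and inhibitors had 2 of 4 higher and 1 lower. Major sperm proteins had 11 of 24 higher and 5 lower (1.73), with summed normalized counts of 44032 in A and 12524 in B, and muscle proteins 19 of 46 higher and 20 lower (-0.44). Total scaling turned some of these: the summed log2 ratio of the major sperm proteins went from -1.81 to 0.18, and the median of the muscle proteins became 2.44, with 23 higher and 13 lower. The medians of the tyrosine, PP2C-type and dual specificity phosphatases became 3.53, 5.43 and 3.97, and that of the kinases 2.51. All unigenes moved as well. On the deposited scale 39.7% of them were higher and 41.6% lower, with a median of 0.35. On total scaling 55.7% were higher and 28.1% lower, with a median of 2.93. The 1 product name with vitellogenin in it, a putative vitellogenin-linked transcript family member, is not itself a vitellogenin and did not pass the minimum. The part of these tissues in the values was not tested.

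Some hits with similar product names are written otherwise and fall outside the naming rule. In *A. galli* there were 11, of which 2 were at least 4-fold lower, none higher, and the median log2 ratio was -1.41. They include a unigene named PP4 catalytic subunit at 50.6% identity, with 2075 normalized counts in A and 673.5 in B (-1.62). A unigene named PP1-gamma catalytic subunit, at only 36.3% identity, had 996.8 and 110.4 (-3.16). The 65 kDa scaffold subunit of PP2A, at 93.9%, had 12938 and 9038 (-0.52). In *T. colubriformis* there were 4, with 2 higher and 2 lower. One of these, named a Ser/Thr phosphatase family protein, had 4.0 and 10538 normalized counts.

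The authors' deposited table of *A. galli* marks 52 members as down, 146 as neutral and 3 as up, with a lowest p-value of 0.0315 and a lowest adjusted p-value of 1. The authors' deposited table of *T. colubriformis* marks 13 as down, 7 as neutral and 11 as up, with a lowest p-value of 0.20 and a lowest adjusted p-value of 1. With 1 library per group these p-values have no replicate spread behind them.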

How the data were processed

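RNA libraries of whole worms were made for 4 groups, 1 each. The authors deposited 1 table per worm which, per the file headers, gives normalized counts in conditions A and B. It also gives a log2 fold change and a p-value, raw and adjusted, with a mark for the direction. The protein hit of each unigene has its percent identity in the deposited table. Differential analysis is credited to DESeq per the submitters' processing notes, with no version given. Neither the assembler nor the alignment settings are stated in the labels. Per the labels, libraries were made from 110 to 350 ng of RNA with 12 PCR cycles.

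Members were taken by product name. Members and lists were chosen with earlier results of these data known. Ratios, on the log2 scale, were taken of those counts after adding 1 to each, for unigenes that reached 20 in either condition. Reads were recovered from the step between values (checked up to 200, whole within 0.1 read). The 95% exact (Clopper-Pearson) intervals used reads divided by 2, rounded and set to at least 1, without the pseudocount. They cover counting error only. Named members were, per worm, the 10 with the highest mean, the 5 largest differences in each direction by the interval bound nearest 0 with at least 100 normalized counts, the highest of each class, and those next to the 4-fold limit; others are named as examples chosen after their values were seen. With 1 library per group no test was made. Simulated counts with known differences were used to check the rule of size. Alternatives were other scalings, pseudocount, minimum, fold limit, the interval bound, counts per hit protein, and narrower or wider names. Python 3.11.15, numpy 2.4.6, pandas 2.3.3, scipy 1.17.1 and matplotlib 3.10.9 were used.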

Additional observations from a re-analysis of the deposited data

How the results depend on the processing

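No paired analysis was possible because each group has 1 library and no residual spread. The count of *A. galli* members at least 4-fold lower, 51 as reported, was 26 on total counts, 22 summed per best-hit protein, 132 at 2-fold and 21 by the bound of the counting interval. The count at least 4-fold higher, 2 as reported, was 0 with a pseudocount of 5, with a minimum of 100, by the interval bound and with ascaridid hits only, and 5 at 2-fold. The *A. galli* median of -1.48 became -1.09 on total counts and -1.67 without regulatory names. Its summed log2 ratio of -1.33 became -0.95 on total counts, -1.20 with the trimmed mean of M-values, -1.42 without regulatory names, -1.23 with ascaridid hits only and -1.25 without the most abundant member. For *T. colubriformis* the sum of -4.02 became -2.03 on total counts, -3.00 with the trimmed mean of M-values, -4.08 without regulatory names and -0.63 without the most abundant member. Its median of 1.15 reversed to -0.24 with no minimum, where 5 low members enter. With a minimum of 1000 it reversed to -1.73, and its counts of 10 higher and 11 lower became 5 and 7. In the other settings run, its medians were above 0 and its counts within 1.5 times the reported ones. With that minimum *A. galli* had 17 lower and 0 higher. The minimum of 1000, wider names and leaving out the most abundant member were chosen after seeing the data. The cause of these shifts was not tested beyond the construction of each setting. Members with few reads have wide intervals, and none of the intervals covers variation between worms.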
